A study of Mus musculus with 35 samples.

Results

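Chemokine ligands are small secreted proteins that draw leukocytes along a concentration gradient by binding receptors on their surface. The genes described here are all those on the array whose symbol begins with Ccl, Cxcl, Cx3cl or Xcl followed by a digit and that have a probe set annotated to them alone. There were 34 such genes among the 18820 genes tested, and where a gene had several probe sets of its own the brightest was used. The values are log2 array signals from mouse liver on Affymetrix Mouse Gene 1.1 ST arrays, 1 array per sample and 35 in all.

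The study compared 3 mouse models of liver cancer. In the DEN model, mice were injected intraperitoneally with diethylnitrosamine, a carcinogen that hepatocytes activate, at 10 mg per kg on day 15 of life and were examined at 9 months. It has 5 tumors, 5 samples of non-tumorous liver (NTL) and 5 livers of untreated controls described as matched for sex and age. In the LT model, the transgene of tg1223 mice gives liver-specific expression of lymphotoxin alpha and beta, and at 12 months 3 tumors and 5 NTL samples were taken. In the MYC model, mice carry both TRE-MYC and LAP-tTA, a transactivator under a liver-specific promoter, and were fed chow with doxycycline (200 mg per kg), which silences MYC, up to week 8. It has 5 tumors and 3 NTL samples. The LT and MYC models share 4 control livers from transgene-negative mice, called LT/MYC controls here.

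Several features of the sampling bear on what follows. Tumor and NTL arrays carry different mouse identifiers, and tissue and animal cannot be told apart in their comparison. All 3 MYC NTL samples have mouse identifiers that start with WT, and whether these mice carried MYC is not settled. The 5 DEN tumors have 3 identifier stems and the 3 LT tumors have 2, so some may come from the same mouse. Xist, the RNA that silences an X chromosome in females, was high on all 3 LT tumor arrays, on 4 of 5 LT NTL arrays and on 1 of 4 LT/MYC control arrays, against 1 of 5 DEN controls and none of the other arrays. Sex and tumor therefore cannot be fully told apart where LT tumors are set against the LT/MYC controls. Sex and transgene likewise cannot where LT NTL is set against those controls. The match for sex in the DEN model was not complete by Xist, which was high in 1 of 5 DEN controls and in no DEN tumor or NTL sample. LT tumor replicate 1 stood apart from the other LT tumors in many of these genes, and values without it are given beside the LT tumor results. All arrays had liver as their main source: Alb, the albumin gene of hepatocytes, had group means of 13.67 to 13.76.

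Inflammatory chemokines are induced in hepatocytes, macrophages and endothelium by injury, through the transcription factor NF-kB and through interferons, and recruit neutrophils, monocytes and T cells. Homeostatic chemokines such as Cxcl12, Cxcl13 and Ccl19 are made by stromal cells and place lymphocytes and progenitors within tissues. Lymphotoxin, the transgene product in the LT model, is the cytokine that induces the homeostatic set during the formation of lymphoid organs.

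Promoter sequences are shown for ligands with a match to a motif of these pathways that were called with a change of at least 1 log2 unit, and for Cxcl3, which was never called but shares a run of bases with its neighbours. RefSeq promoters of the assembly GRCm38.p6 were found for 23 of the 34 genes. In the 250 bases before the start site, the kappa B motif GGGANNTTCC, the recognition sequence of NF-kB, was searched on both strands. It occurred in 397 of 32851 promoters (1.21%), and among the chemokine ligands in Ccl1 (not shown), Cxcl1, Cxcl2, Cxcl3 and Cxcl10. The interferon response motif GAAANNGAAA occurred in 978 promoters (2.98%) and in Ccl19, Cxcl10 and Cxcl14. The neighbouring genes Cxcl1, Cxcl2 and Cxcl3 share a run of 11 bases in their promoters that contains the kappa B motif on both strands at overlapping positions. It begins 71 bases before the start of Cxcl1, 97 before that of Cxcl2 and 73 before that of Cxcl3, and it is in capitals in these stretches, each given 5′ to 3′ on the strand of its gene.
Cxcl1 (chr5:90891125-90891214, plus strand): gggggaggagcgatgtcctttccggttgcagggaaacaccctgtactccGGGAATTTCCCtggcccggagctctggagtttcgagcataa
Cxcl2 (chr5:90903779-90903868, plus strand): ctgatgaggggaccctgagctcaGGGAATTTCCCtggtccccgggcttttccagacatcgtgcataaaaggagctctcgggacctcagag
Cxcl3 (chr5:90785981-90786070, plus strand): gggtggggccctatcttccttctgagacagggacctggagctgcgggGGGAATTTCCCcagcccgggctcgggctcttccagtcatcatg

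Cxcl10 holds both motifs, and Cxcl14 and Ccl19 hold the interferon response motif, in capitals here.
Cxcl10 (chr5:92348980-92349109, minus strand): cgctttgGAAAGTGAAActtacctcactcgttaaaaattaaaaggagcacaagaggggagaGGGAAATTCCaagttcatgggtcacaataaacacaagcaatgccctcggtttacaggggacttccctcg
Cxcl14 (chr13:56296692-56296751, minus strand): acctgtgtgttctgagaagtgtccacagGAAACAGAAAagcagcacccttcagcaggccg
Ccl19 (chr4:42756536-42756595, minus strand): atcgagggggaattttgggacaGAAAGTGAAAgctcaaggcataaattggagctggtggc

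These matches describe letters in a window and were not tested for binding of any factor.

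The genes were first sorted by brightness. The first quartile of all probe sets lay between 4.13 and 4.24 on the arrays, and a gene was called clearly above it when its mean over the 35 arrays exceeded the highest first quartile by more than 1 log2 unit, that is 5.24. By this rule 21 ligands were clearly above and 13 were near background. The split falls between Ccl20 (mean 5.27) and Xcl1 (mean 5.07), and with margins of 0.5 and 1.5 log2 units 23 and 16 ligands were above. The near-background genes were Ccl1, Ccl4, Ccl8, Ccl12, Ccl17, Ccl22, Ccl26, Ccl28, Cxcl2, Cxcl3, Cxcl5, Cxcl15 and Xcl1. Of these, Ccl8, Ccl17 and Xcl1 had at least 1 group with a mean above 5.24 and the other 10 had none. A change in a gene near background tells a direction more than a size, since a dim signal compresses differences.

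**Figure D1:**
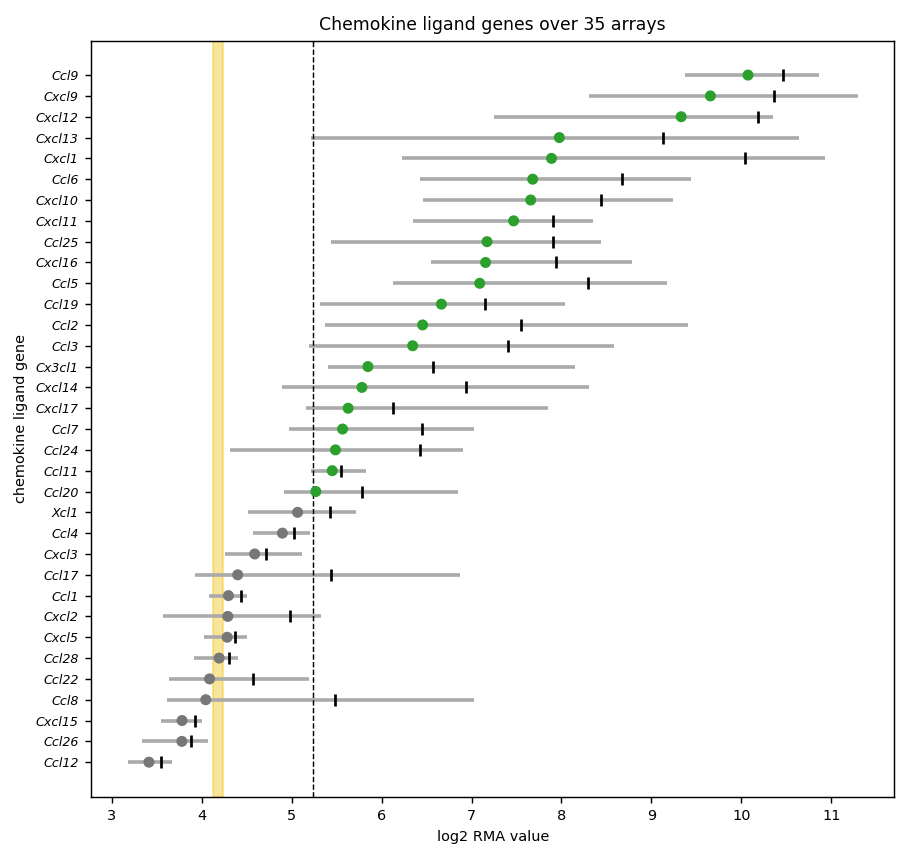
Log2 RMA value of the 34 chemokine ligand genes. Points are means over 35 arrays (green, clearly above; grey, near background), bars run from the lowest to the highest array, black ticks mark the highest group mean, the yellow band is the range of the array first quartiles (4.13 to 4.24) and the dashed line is 5.24. Ccl8, Ccl17 and Xcl1 have means left of the line and a group mean to its right.

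Across the 8 groups, 13 of the 34 ligands had their highest group mean in LT tumors and 9 in DEN tumors, while 11 had their lowest in MYC NTL and 8 in MYC tumors. These counts are a description, include near-background genes and were not computed for all genes. LT tumors and MYC NTL hold 3 arrays each, the fewest of the 8 groups. LT tumor replicate 1 was the highest LT tumor in 20 of the 34 ligands. In limma's fit over all 35 arrays, with p-values adjusted over all genes tested and calls made below an adjusted p of 0.05, 24 of the 34 (70.6%) were called in at least 1 of 9 comparisons and 10 in none, against 61.1% of all genes called in at least 1.

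In DEN tumors against DEN NTL, 11 of the 34 ligands were called (32.4%), against 32.2% of all genes. The 7 that rose were Cxcl1, Cxcl2, Cxcl15, Cxcl10, Ccl2, Ccl9 and Cxcl14 (20.6%, against 15.6% of all genes), and the 4 that fell were Cxcl12, Ccl19, Ccl6 and Ccl24 (11.8%, against 16.7%). The share of ligands called thus lay near the background. The median log2 change was 0.09 over the ligands and -0.04 over all genes. Against the untreated DEN controls, 7 ligands were called (20.6%, against 30.7% of all genes): Ccl2, Cxcl14, Cxcl16 and Cxcl17 rose (15% of all genes rose), and Cxcl12, Ccl19 and Ccl1 fell (15.6% fell). With Xist as a covariate the calls of Ccl1 and Cxcl17 against controls were lost, and Cxcl10 was called. Both comparisons use the same 5 tumors. DEN NTL differed from DEN controls in Cxcl1 alone among the 34, where 0.197% of all genes were called.

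In LT tumors against LT NTL, 12 of the 34 ligands were called (35.3%, against 20.4% of all genes). The 10 that rose were Ccl2, Ccl7, Ccl8, Ccl5, Ccl6, Ccl17, Ccl22, Ccl20, Cx3cl1 and Cxcl16 (29.4%, against 10.7% of all genes), and Cxcl12 and Ccl26 fell (5.88%, against 9.73%). The median log2 change was 0.33 over the ligands and -0.03 over all genes. Without LT tumor replicate 1 the calls were 3, in Ccl7, Ccl8 and Cxcl12 (8.82%, against 8.32% of all genes), a share near the background. In a fit that held the LT tumor and LT NTL arrays only there was 1, Ccl5, where 3.27% of all genes were called. Replicate 1 had the highest value of the 3 tumors in all 10 ligands that rose. Against the LT/MYC controls, Ccl7, Ccl8, Ccl17, Cx3cl1 and Cxcl16 rose (14.7% of the ligands; 16.5% of all genes were called, 8.78% higher and 7.73% lower), with Xist as a covariate the call was Ccl8 alone, and in a fit of those groups only there was none, as for all genes (0%). Same-numbered arrays of these groups deviated together, and with the replicate number as a block 4 were called, without Cx3cl1. LT NTL and LT/MYC controls differed in none of the 34 by limma, where 2.41% of all genes were called. None of the 34 had an unadjusted p under 0.05 either, a threshold at which the share of all genes is not given here. Cxcl12 was called when the fit held those groups only, where 3.11% of all genes were called.

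MYC tumors showed few called ligands. Against MYC NTL 2 of 34 were called (5.88%, against 21.8% of all genes), Cxcl12 and Ccl19, both lower; 11.5% of all genes were higher and 10.3% lower. Against the LT/MYC controls Cxcl12, Ccl19 and Cxcl13 were lower (8.82%, against 20.5% of all genes, of which 10.2% were higher and 10.3% lower). MYC NTL differed from these controls in Cxcl11, where 3.83% of all genes were called. In fits that held the compared groups only, 6 ligands were called in MYC tumors against NTL and 9 against controls, where 18.2% and 17.1% of all genes were called. The 4 added against NTL were Ccl2, Ccl25, Cxcl13 and Cxcl17.

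**Figure D2:**
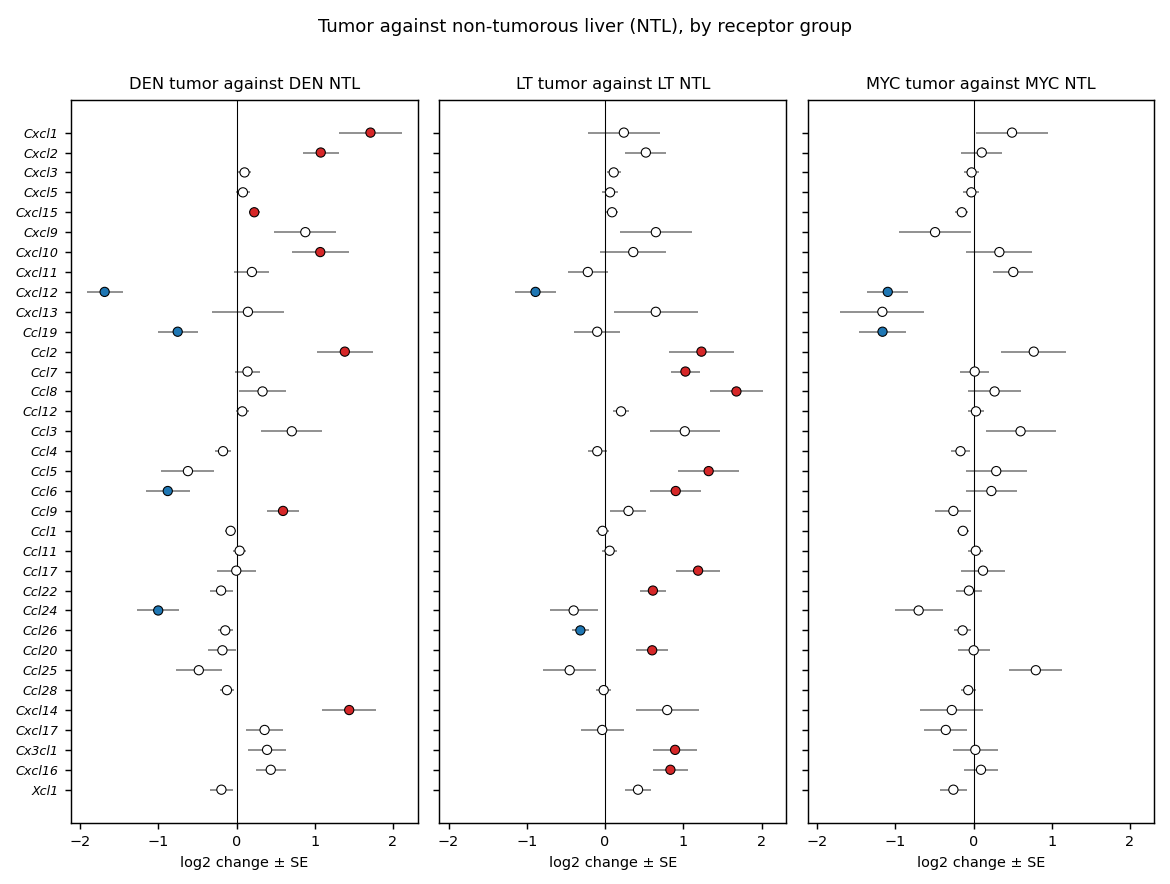
Log2 change ± SE of the 34 chemokine ligand genes in tumors against non-tumorous liver of the same model, ordered by receptor group. Red points were called higher and blue points lower in limma's fit, and open points were not called. Cxcl12 is blue in each of the 3 panels, and 10 of the red points are in the LT panel.

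The homeostatic ligands Cxcl12, Ccl19 and Cxcl13 fell in several tumor groups: Cxcl12 was called lower than NTL in all 3 models and Ccl19 in DEN and MYC, and Cxcl13 was called lower than controls in MYC. In bulk tissue such as this, fewer cells of a type and less RNA per cell cannot be told apart. Cxcl12, the ligand of Cxcr4 that retains leukocytes and progenitors in their niche, read 8.42, 8.04, 7.63, 7.92 and 7.25 on the DEN tumor arrays, against 9.48, 9.52, 9.55, 9.59 and 9.57 in DEN NTL and 10.01, 9.89, 9.77, 9.62 and 9.57 in DEN controls. Every DEN tumor lay below every NTL and control sample, with no overlap. The mean was 7.85 ± 0.44 (SD, n = 5) in tumors and 9.54 ± 0.04 (SD, n = 5) in NTL, a log2 change of -1.69 ± 0.23 (SE; adjusted p = 1.13e-06) or 3.22-fold lower. Against DEN controls the change was -1.92 ± 0.23 (SE; adjusted p = 1.08e-07). MYC tumors read 8.38, 8.41, 9.52, 8.78 and 8.48 for Cxcl12, MYC NTL 9.81, 9.91 and 9.71 and LT/MYC controls 9.62, 9.69, 9.83 and 9.77. Again no tumor reached the NTL or control range, although replicate 3 came near it. The log2 changes were -1.10 ± 0.26 (SE; adjusted p = 0.00311) against NTL and -1.02 ± 0.24 (SE; adjusted p = 0.00282) against controls. The LT tumors split, with 9.67, 8.20 and 10.03 against 10.32, 9.99, 10.01, 10.35 and 10.27 in LT NTL. Replicates 1 and 2 lay below all NTL samples, replicate 2 by far, and replicate 3 was within their range. The change of -0.89 ± 0.26 (SE; adjusted p = 0.0158) became -0.34 (adjusted p = 0.337) without replicate 2. The tumor changes of Cxcl12 in DEN and MYC differed by -0.59 ± 0.35 (SE; adjusted p = 0.288), and those in DEN and LT by -0.80 ± 0.35 (SE; adjusted p = 0.13), neither past the threshold.

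Ccl19, the ligand of Ccr7 that guides T cells and dendritic cells to lymphoid tissue, is represented by 5 probe sets, with means of 6.58 to 6.67 over the arrays. Near-identical copies of the gene exist in the mouse genome, so its signal may be shared. It read 6.25, 5.82, 5.92, 6.65 and 6.10 in DEN tumors, 6.93, 7.44, 6.93, 6.47 and 6.74 in DEN NTL and 7.19, 7.14, 6.83, 6.78 and 6.92 in DEN controls. The tumors lay below all controls and overlapped NTL. The log2 change was -0.75 ± 0.26 (SE; adjusted p = 0.023) against NTL and -0.82 ± 0.26 (SE; adjusted p = 0.0131) against controls, and the first was no longer called without NTL replicate 2 (adjusted p = 0.0755), tumor replicate 2 (0.0607) or tumor replicate 3 (0.056). MYC tumors read 6.0, 5.74, 5.61, 6.13 and 5.32, below the 6.77, 7.01 and 6.99 of MYC NTL and the 6.68, 6.6, 6.53 and 6.87 of LT/MYC controls. The 3 groups had means of 5.76 ± 0.32 (SD, n = 5), 6.93 ± 0.13 (SD, n = 3) and 6.67 ± 0.15 (SD, n = 4). The fall was -1.16 ± 0.30 (SE; adjusted p = 0.00471) against NTL, 2.24-fold, and -0.91 ± 0.27 (SE; adjusted p = 0.0155) against controls. In LT tumors the values were 7.43, 5.68 and 8.04, on both sides of the 7.43, 7.26, 6.77, 7.25 and 7.04 of LT NTL, and the change of -0.10 ± 0.30 (SE; adjusted p = 0.857) was not called and turned to 0.58 (adjusted p = 0.075) without replicate 2. Without LT tumor replicate 2, the lowest of the 3, Ccl19 in LT tumors was 1.06 above LT/MYC controls (adjusted p = 0.00355).

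Cxcl13, the B cell attractant that binds Cxcr5, gave the largest called fall among the 34 ligands over the 9 comparisons. MYC tumors read 5.53, 5.50, 5.43, 5.21 and 5.60, MYC NTL 6.59, 6.21 and 7.06 and LT/MYC controls 7.86, 7.05, 8.47 and 8.63. The 5 tumors were the lowest and close to each other, and overlapped neither other group. The NTL samples met the control range at replicate 3. The mean was 5.45 ± 0.15 (SD, n = 5) in tumors and 8.00 ± 0.71 (SD, n = 4) in controls, a change of -2.55 ± 0.49 (SE; adjusted p = 0.000323) or 5.85-fold lower, while the change against NTL of -1.17 ± 0.54 (SE; adjusted p = 0.123) was not called. MYC NTL against controls gave -1.38 ± 0.56 (SE; adjusted p = 0.184). In the DEN model Cxcl13 read 8.06, 7.64, 9.67, 10.65 and 9.65 in tumors, 10.03, 9.03, 8.77, 8.71 and 8.41 in NTL and 9.49, 7.99, 8.38, 7.72 and 7.04 in controls, with wide and overlapping groups. In the LT model it read 9.92, 8.24 and 8.85 in tumors and 9.38, 8.04, 8.55, 7.82 and 7.99 in NTL. No Cxcl13 difference in those models was called, although DEN tumors against DEN controls (1.01 ± 0.46 (SE; adjusted p = 0.104)) passed the threshold without control replicate 1 or tumor replicate 1 or 2, and the difference of its LT and MYC tumor changes was 1.81 ± 0.76 (SE; adjusted p = 0.113).

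**Figure D3:**
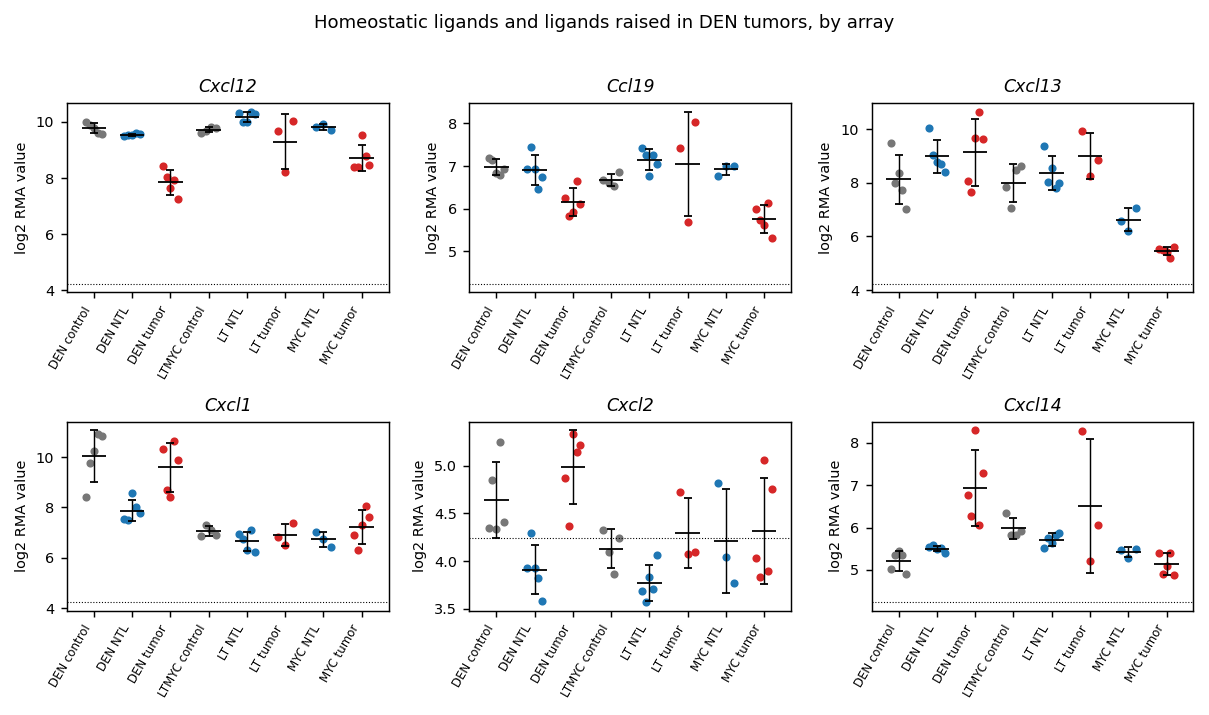
Log2 RMA value on each array for Cxcl12, Ccl19, Cxcl13, Cxcl1, Cxcl2 and Cxcl14, by group (grey, controls; blue, NTL; red, tumors). Horizontal lines are group means, bars are ± 1 SD, the dotted line is the highest array first quartile (4.24), and each panel has its own axis. DEN and MYC tumors lie below their NTL samples in Cxcl12, and DEN tumors and DEN controls both lie high in Cxcl1.

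Cxcl1 is the neutrophil-attracting ligand of Cxcr2 that was clearly above background. It read 10.32, 8.70, 8.41, 10.64 and 9.87 in DEN tumors, 7.54, 7.50, 8.56, 8.01 and 7.77 in DEN NTL and 8.41, 9.76, 10.25, 10.93 and 10.85 in DEN controls. Tumors and controls were both high and DEN NTL was low, with an overlap at the lower end of each. The means were 9.59 ± 0.99 (SD, n = 5), 7.88 ± 0.43 (SD, n = 5) and 10.04 ± 1.03 (SD, n = 5). The log2 change of tumors against NTL was 1.71 ± 0.40 (SE; adjusted p = 0.00132), 3.27-fold higher, and that of NTL against controls was -2.16 ± 0.40 (SE; adjusted p = 0.00745), 4.47-fold lower. The difference of tumors from controls was not called (-0.45 ± 0.40 (SE; adjusted p = 0.449)). The call of a rise in DEN tumors thus depends on which reference is used. In the groups of the other models Cxcl1 read 6.88, 7.32, 7.11 and 6.91 in LT/MYC controls, 6.94, 6.73, 6.29, 7.09 and 6.22 in LT NTL, 6.81, 6.5 and 7.37 in LT tumors, 7.03, 6.75 and 6.44 in MYC NTL and 6.89, 6.29, 7.32, 8.04 and 7.62 in MYC tumors. None of these groups differed in a called comparison, and no test was made between DEN controls and LT/MYC controls.

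Cxcl2, which shares the 11-base promoter run with Cxcl1, is near background and was also lowest in NTL among the DEN groups. It read 4.87, 4.37, 5.33, 5.14 and 5.22 in DEN tumors, 3.93, 4.29, 3.93, 3.82 and 3.58 in DEN NTL and 4.35, 4.85, 4.34, 5.25 and 4.41 in DEN controls. All tumors lay above all NTL samples, with a log2 change of 1.08 ± 0.23 (SE; adjusted p = 0.000486). NTL lay below every control without passing the threshold (-0.73 ± 0.23 (SE; adjusted p = 0.244)), and tumors against controls gave 0.35 ± 0.23 (SE; adjusted p = 0.28). The other arrays read 4.33, 4.09, 3.86 and 4.24 in LT/MYC controls, 3.69, 3.57, 3.83, 3.71 and 4.06 in LT NTL and 4.72, 4.07 and 4.09 in LT tumors. MYC NTL read 4.82, 4.04 and 3.77 and MYC tumors 4.03, 3.83, 5.06, 3.90 and 4.75. Cxcl3, with the same promoter run, had array values of 4.25 to 5.11 and was called in no comparison, as was Cxcl5, the epithelial neutrophil attractant (4.02 to 4.50). Cxcl15, known from lung epithelium, was higher in DEN tumors by 0.23 ± 0.07 (SE; adjusted p = 0.0147), at group means of 3.92 ± 0.09 and 3.70 ± 0.16 that lie below the first quartile of every array. Without DEN NTL replicate 3 the Cxcl15 change was 0.19 (adjusted p = 0.0541), and it was not called with arrays of shared identifier stems averaged. Of the 5 Cxcr2 ligands, 3 rose in DEN tumors against NTL, where 15.6% of all genes rose, and none was called in the LT or MYC tumors. Markers of neutrophils, the cells these ligands attract, were called in 0 of 10 genes in that DEN comparison, and the mean of the list was 4.46 to 4.84 on the tumor arrays and 4.58 to 4.87 on the NTL arrays.

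The interferon-induced ligands of Cxcr3, which attract activated T cells and NK cells, were all clearly above background. Cxcl10 read 8.00, 7.93, 8.93, 8.09 and 9.24 in DEN tumors, 6.46, 8.77, 7.60, 7.23 and 6.8 in DEN NTL and 7.46, 6.81, 8.71, 7.48 and 7.85 in DEN controls. The tumors spanned a narrower range than NTL, and the highest NTL sample, replicate 2, exceeded 3 of them. The log2 change against NTL was 1.07 ± 0.36 (SE; adjusted p = 0.024), and it lost its call without NTL replicate 1 or 5 or tumor replicate 3 or 5 (adjusted p of 0.0918, 0.0699, 0.0668 and 0.082). With arrays of shared identifier stems averaged its adjusted p was 0.0765. Against DEN controls the change was 0.78 ± 0.36 (SE; adjusted p = 0.11). In the LT model Cxcl10 read 8.47, 7.44 and 7.38 in tumors, 7.36, 7.02, 7.13, 8.36 and 7.13 in NTL and 7.90, 8.03, 8.55 and 7.21 in LT/MYC controls. MYC tumors read 7.85, 7.43, 7.45, 6.99 and 7.58 and MYC NTL 7.04, 7.05 and 7.29. Neither of these models gave a called Cxcl10 difference.

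Cxcl9 had group means from 8.76 ± 0.42 in MYC tumors to 10.37 ± 0.27 in LT tumors and was called in no comparison, but without DEN NTL replicate 2 its change in DEN tumors against NTL was 1.37 (adjusted p = 0.0021). Cxcl11 was called in MYC NTL, at 6.35, 6.97 and 6.61, against LT/MYC controls at 7.64, 7.78, 8.10 and 7.11. The groups did not overlap and the change was -1.01 ± 0.27 (SE; adjusted p = 0.0272). It was lost in 5 of 7 fits that left out an array and with Xist as a covariate. MYC tumors read 7.33, 7.54, 7.26, 6.71 and 6.92, a range that overlapped both groups. The LT arrays read 7.20, 7.61 and 8.23 in tumors and 8.18, 7.65, 7.93, 7.88 and 7.86 in NTL, and the DEN arrays 7.38, 7.54, 7.07, 8.35 and 7.82 in tumors, 7.87, 7.08, 6.93, 7.61 and 7.69 in NTL and 7.50, 7.16, 7.76, 7.31 and 7.43 in controls, with no call. Of 11 measured genes of the interferon gamma pathway, 5 rose in DEN tumors, 5 rose in LT tumors and 1 rose and 1 fell in MYC tumors, each against NTL. In these comparisons 15.6%, 10.7% and 11.5% of all genes rose, and 10.3% fell in MYC tumors. The LT count of this pathway was not computed without LT tumor replicate 1.

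The ligands that attract monocytes, Ccl2, Ccl7, Ccl8 and Ccl12, lie in 1 stretch of chromosome 11 (GRCm38.p6, 82035577 to 82179812, together with Ccl11 and Ccl1). Ccl2, the main ligand of Ccr2, read 9.41, 5.88, 6.98, 7.20 and 8.31 in DEN tumors, 5.96, 6.56, 6.27, 6.10 and 5.97 in DEN NTL and 5.89, 5.76, 6.14, 5.98 and 5.72 in DEN controls. The tumors were spread widely, with replicate 1 highest and replicate 2 below every NTL sample. The means were 7.56 ± 1.35 (SD, n = 5), 6.17 ± 0.25 (SD, n = 5) and 5.90 ± 0.17 (SD, n = 5), and the changes were 1.38 ± 0.36 (SE; adjusted p = 0.00332) against NTL and 1.66 ± 0.36 (SE; adjusted p = 0.000524) against controls. Without DEN tumor replicate 1 the change against NTL was 0.92 (adjusted p = 0.0139), and with only the DEN tumor and NTL arrays in the fit its adjusted p was 0.0729.

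LT tumors read 7.99, 6.89 and 6.85 for Ccl2, above all of LT NTL at 5.70, 5.77, 6.10, 6.58 and 5.92, while the LT/MYC controls at 6.74, 6.58, 7.22 and 6.59 overlapped the tumors. The change was 1.23 ± 0.41 (SE; adjusted p = 0.033) against NTL and 0.46 ± 0.43 (SE; adjusted p = 0.491) against controls. The first fell to 0.86 (adjusted p = 0.286) without tumor replicate 1 and also lost its call without NTL replicate 1, 2 or 5. MYC tumors read 6.40, 6.14, 6.70, 6.45 and 6.32 and MYC NTL 5.70, 5.82 and 5.37; the groups did not overlap and the change of 0.77 ± 0.41 (SE; adjusted p = 0.193) was not called. The tumor changes of Ccl2 in DEN and LT differed by 0.15 ± 0.55 (SE; adjusted p = 0.897).

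Ccl7, which binds Ccr2 among other receptors, rose in LT tumors. The values were 7.03, 6.61 and 5.72 in LT tumors, 5.19, 5.37, 5.62, 5.49 and 5.44 in LT NTL and 5.87, 5.44, 5.78 and 5.53 in LT/MYC controls. All 3 tumors exceeded every NTL sample, and replicate 3 lay within the control range. The change was 1.03 ± 0.18 (SE; adjusted p = 0.000229) against NTL, 2.04-fold, and 0.80 ± 0.19 (SE; adjusted p = 0.00529) against controls. The latter was 0.51 (adjusted p = 0.114) without replicate 1 and 0.61 (adjusted p = 0.0579) with arrays of shared identifier stems averaged. DEN tumors read 5.98, 5.37, 5.51, 5.71 and 5.53, DEN NTL 5.31, 5.80, 5.29, 5.60 and 5.40 and DEN controls 5.29, 5.07, 5.42, 4.97 and 5.44. MYC tumors read 5.52, 5.55, 5.31, 5.66 and 5.51 and MYC NTL 5.35, 5.46 and 5.68. Neither model gave a call, and the rise in LT exceeded the change in DEN (DEN minus LT, -0.89 ± 0.24 (SE; adjusted p = 0.0134)) and in MYC (LT minus MYC, 1.01 ± 0.26 (SE; adjusted p = 0.0105)). Without LT tumor replicate 1 these differences were -0.60 (adjusted p = 0.0888) and 0.72 (adjusted p = 0.0622).

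Ccl8, which in the mouse also signals through Ccr8, read no higher than 4.61 on every array outside the LT tumors. LT tumors read 7.02, 5.64 and 3.77, LT NTL 3.79, 3.95, 3.74, 3.61 and 3.90 and LT/MYC controls 3.98, 3.70, 3.86 and 3.61. Replicates 1 and 2 were far above all of these samples and replicate 3 was among them. The change was 1.68 ± 0.34 (SE; adjusted p = 0.000754) against NTL and 1.69 ± 0.36 (SE; adjusted p = 0.00196) against controls. It was 0.91 (adjusted p = 0.0321) without replicate 1 and 2.53 (adjusted p = 1.67e-09) without replicate 3, against NTL. DEN tumors read 4.02, 4.07, 4.41, 4.03 and 4.57, DEN NTL 3.71, 4.28, 3.96, 3.75 and 3.74 and DEN controls 3.79, 3.78, 3.90, 3.73 and 3.75. MYC tumors read 3.92, 4.61, 3.83, 4.03 and 3.83 and MYC NTL 3.98, 3.72 and 3.62, and neither model gave a call. Ccl12, the other Ccr2 ligand, ranged from 3.18 to 3.67 over all arrays and was never called.

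**Figure D4:**
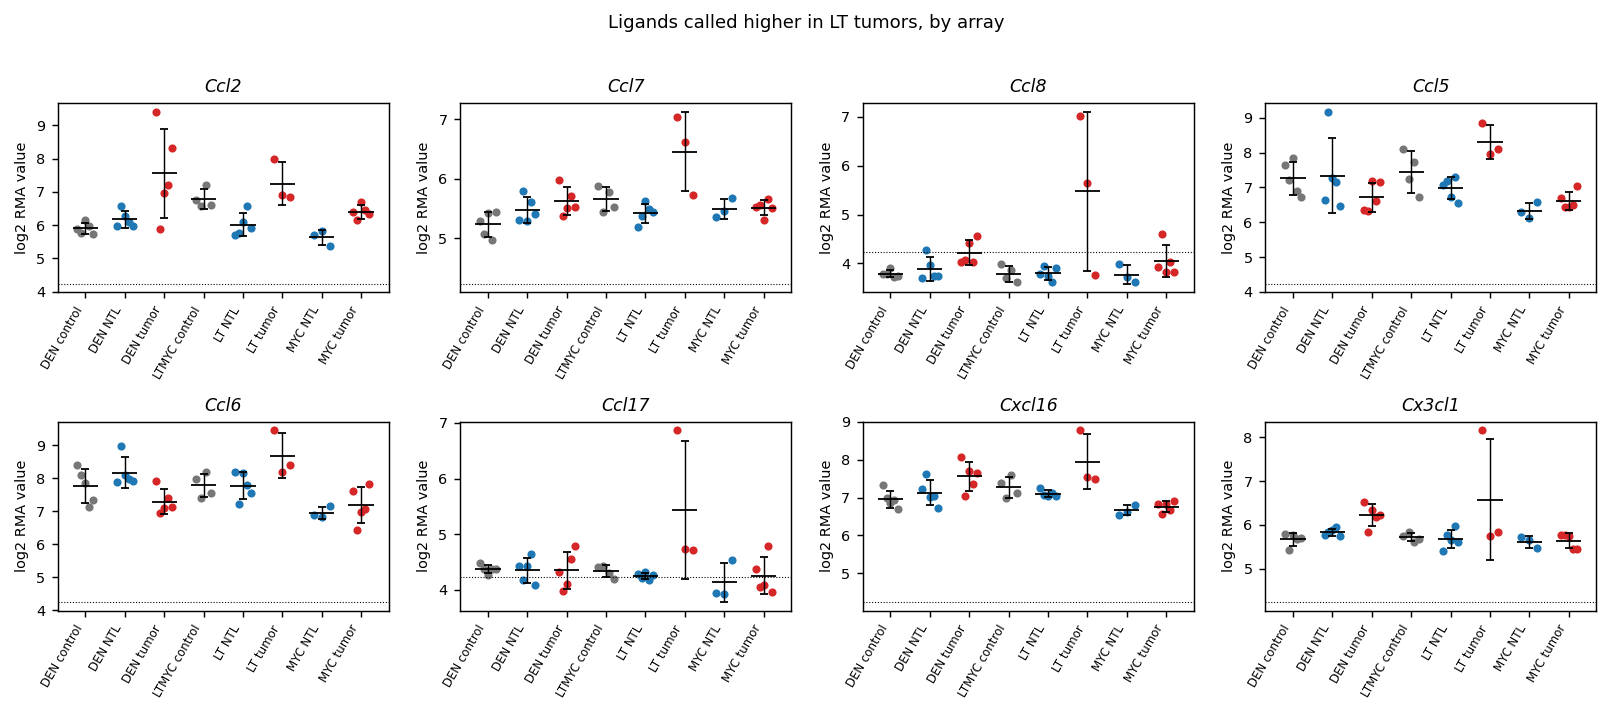
Log2 RMA value on each array for 8 of the 10 ligands called higher in LT tumors against LT NTL, by group (grey, controls; blue, NTL; red, tumors). Horizontal lines are group means, bars are ± 1 SD, the dotted line is the highest array first quartile (4.24), and each panel has its own axis. The first LT tumor point in each panel is replicate 1, the highest of the 3 in all 8 genes.

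Ccl5, Ccl9, Ccl6, Ccl3 and Ccl4 lie in a second stretch of chromosome 11 (83525778 to 83664683). Ccl5, the T cell and NK cell product that attracts effector T cells, read 8.85, 7.95 and 8.09 in LT tumors, 7.08, 7.19, 6.72, 7.30 and 6.56 in LT NTL and 8.09, 7.25, 7.74 and 6.71 in LT/MYC controls. The tumors lay above all NTL samples and overlapped the controls. The change was 1.32 ± 0.39 (SE; adjusted p = 0.0154) against NTL and 0.85 ± 0.41 (SE; adjusted p = 0.158) against controls. The first was 1.05 (adjusted p = 0.152) without replicate 1 and 1.27 (adjusted p = 0.0646) with arrays of shared identifier stems averaged. DEN tumors read 6.35, 6.32, 7.18, 6.6 and 7.14, DEN NTL 6.65, 9.17, 7.26, 7.14 and 6.46 and DEN controls 7.63, 7.21, 7.85, 6.90 and 6.72, with NTL replicate 2 the highest of all arrays. The DEN change of -0.62 ± 0.34 (SE; adjusted p = 0.166) was not called, and it differed from the LT change by -1.95 ± 0.52 (SE; adjusted p = 0.0112), or -1.67 (adjusted p = 0.0464) without LT tumor replicate 1. MYC tumors read 6.70, 6.43, 6.44, 6.5 and 7.04 and MYC NTL 6.28, 6.13 and 6.58. Markers of T and NK cells rose in 4 of 12 genes in LT tumors, with list means of 5.80, 5.16 and 5.62 on the tumor arrays and 4.82 to 5.15 on the NTL arrays. Without replicate 1 the count was 1 of 12. In LT tumors against NTL 10.7% of all genes rose, and 8.32% were called without replicate 1. The part of the T and NK cell markers in the Ccl5 result was not tested.

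Ccl6 and Ccl9 are rodent ligands of Ccr1 made by macrophages. Ccl6 moved in opposite directions: its mean was 7.29 ± 0.39 (SD, n = 5) in DEN tumors against 8.17 ± 0.46 (SD, n = 5) in DEN NTL (-0.88 ± 0.28 (SE; adjusted p = 0.0159)), and 8.67 ± 0.68 (SD, n = 3) in LT tumors against 7.77 ± 0.42 (SD, n = 5) in LT NTL (0.90 ± 0.32 (SE; adjusted p = 0.0463)). The difference of these changes was -1.78 ± 0.43 (SE; adjusted p = 0.00543), and -1.40 (adjusted p = 0.0335) without LT tumor replicate 1. The fall lost its call without DEN NTL replicate 2 (adjusted p = 0.0661) and the rise without LT tumor replicate 1 (0.423) or LT NTL replicate 2, 4 or 5. The rise was also not called with arrays of shared identifier stems averaged. Ccl9 rose in DEN tumors by 0.59 ± 0.20 (SE; adjusted p = 0.0219) with no overlap of the groups (10.03 to 10.68 against 9.67 to 9.97). That call was lost without NTL replicate 5 (adjusted p = 0.055) or tumor replicate 4 (0.0561). Ccl3, an early product of activated macrophages, had means of 7.41 ± 1.14 in LT tumors and 6.39 ± 0.19 in LT NTL, and of 6.74 ± 0.85 in DEN tumors and 6.03 ± 0.72 in DEN NTL, with no call. Without LT tumor replicate 3 its change was 1.57 (adjusted p = 0.013), and without DEN NTL replicate 2 it was 1.01 (adjusted p = 0.0437). Ccl4 is its neighbour, and the RefSeq bounds of both genes overlap. It was near background on every array (4.57 to 5.20) and never called.

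Markers of Kupffer cells, the resident macrophages of the liver, fell in DEN tumors, as did Ccl6, while Ccl9 rose there. All 10 measured Kupffer markers fell in DEN tumors against NTL (median log2 change -1.55), and the mean of the list was 6.82 to 8.03 on tumor arrays and 8.84 to 9.60 on NTL arrays, with no overlap. Clec4f, a defining marker, fell by 1.96. In LT tumors 1 of 10 rose and 3 fell, and none was called without LT tumor replicate 1. In MYC tumors 2 fell. Of all genes, 16.7% fell in DEN tumors, 10.7% rose and 9.73% fell in LT tumors, and 10.3% fell in MYC tumors. The part of Kupffer cells in the falls of Ccl6, Ccl24 and Cxcl12 in DEN tumors was not tested.

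Ccl24, an eosinophil attractant that binds Ccr3, read 6.0, 5.12, 5.31, 5.73 and 4.95 in DEN tumors, 5.74, 6.65, 6.73, 6.90 and 6.10 in DEN NTL and 5.52, 6.42, 5.29, 5.99 and 6.15 in DEN controls. The tumors lay lower with an overlap through replicate 1 of each group. The change was -1.003 ± 0.27 (SE; adjusted p = 0.004) against NTL, 2-fold, and -0.45 ± 0.27 (SE; adjusted p = 0.214) against controls. LT tumors read 4.65, 4.35 and 5.73, LT NTL 5.13, 5.19, 5.82, 5.20 and 5.22 and LT/MYC controls 5.29, 5.54, 5.38 and 5.28. MYC tumors read 5.41, 4.31, 4.40, 4.89 and 5.09 and MYC NTL 5.40, 5.16 and 6.0. The changes in these models were -0.40 ± 0.31 (SE; adjusted p = 0.392) and -0.70 ± 0.31 (SE; adjusted p = 0.102) against NTL, neither called.

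Ccl17 and Ccl22, the ligands of Ccr4 on regulatory and type 2 helper T cells, flank Cx3cl1 on chromosome 8 (94745684 to 94812038), and these 3 neighbours were all called higher in LT tumors against NTL. Ccl17 read 6.87, 4.73 and 4.72 in LT tumors, 4.28, 4.22, 4.32, 4.17 and 4.26 in LT NTL and 4.41, 4.43, 4.31 and 4.20 in LT/MYC controls. All 3 tumors exceeded every NTL and control sample, replicate 1 by far. The change was 1.19 ± 0.28 (SE; adjusted p = 0.00315) against NTL and 1.10 ± 0.30 (SE; adjusted p = 0.0113) against controls, and fell to 0.48 (adjusted p = 0.122) and 0.39 (adjusted p = 0.256) without replicate 1. DEN tumors read 4.33, 3.98, 4.10, 4.55 and 4.79, DEN NTL 4.43, 4.17, 4.43, 4.65 and 4.09 and DEN controls 4.49, 4.37, 4.27, 4.37 and 4.37. MYC tumors read 4.37, 4.06, 4.09, 4.79 and 3.97 and MYC NTL 3.94, 3.92 and 4.54. These groups sat at background, and the DEN and LT changes differed by -1.19 ± 0.38 (SE; adjusted p = 0.031), or by -0.48 (adjusted p = 0.199) without LT tumor replicate 1.

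Ccl22 had means of 4.57 ± 0.54 (SD, n = 3) in LT tumors and 3.96 ± 0.17 (SD, n = 5) in LT NTL (0.61 ± 0.17 (SE; adjusted p = 0.0103)), and the change was 0.30 (adjusted p = 0.278) without replicate 1. Cx3cl1, the membrane-tethered ligand of Cx3cr1, had means of 6.58 ± 1.37 (SD, n = 3) and 5.68 ± 0.21 (SD, n = 5) (0.90 ± 0.29 (SE; adjusted p = 0.0245)), with values of 8.16, 5.74 and 5.83 in the tumors. Without replicate 1 its change was 0.10 (adjusted p = 0.748), and 0.06 (adjusted p = 0.858) against controls. Cxcl16, the other tethered ligand, which binds Cxcr6, had means of 7.94 ± 0.73 (SD, n = 3) and 7.11 ± 0.09 (SD, n = 5) (0.84 ± 0.22 (SE; adjusted p = 0.00681)), and 0.41 (adjusted p = 0.22) without replicate 1, or 0.25 (adjusted p = 0.533) against controls. A second probe set, annotated to Zmynd15 and Cxcl16 and so outside the rule, gave -0.01 (adjusted p = 0.985) in LT tumors against NTL and -0.79 (adjusted p = 0.000661) in MYC tumors against controls. By its own probe set, Cxcl16 was also higher in DEN tumors than in DEN controls, by 0.60 ± 0.19 (SE; adjusted p = 0.0143). That call was lost without DEN tumor replicate 1 (adjusted p = 0.0589). The second set gave 0.12 (adjusted p = 0.616) for DEN tumors against DEN controls. Ccl26, near background, was lower in LT tumors by -0.32 ± 0.11 (SE; adjusted p = 0.0413), and Ccl1, also near background, was lower in DEN tumors than in controls by -0.19 ± 0.07 (SE; adjusted p = 0.0453). Both calls were lost when any of several single arrays was left out. Ccl11, an eosinophil attractant, varied little (5.22 to 5.82) and was never called.

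Cxcl14 is a ligand of epithelia and stroma whose receptor is debated. DEN tumors read 6.76, 6.28, 8.30, 6.07 and 7.30, DEN NTL 5.54, 5.58, 5.49, 5.51 and 5.40 and DEN controls 5.03, 5.36, 5.45, 5.35 and 4.91. Every tumor lay above every NTL and control sample. The means were 6.94 ± 0.90 (SD, n = 5), 5.50 ± 0.07 (SD, n = 5) and 5.22 ± 0.24 (SD, n = 5), and the changes 1.44 ± 0.35 (SE; adjusted p = 0.00182) against NTL, 2.71-fold, and 1.72 ± 0.35 (SE; adjusted p = 0.000243) against controls. LT tumors read 8.27, 5.22 and 6.05, LT NTL 5.51, 5.75, 5.63, 5.82 and 5.88 and LT/MYC controls 6.35, 5.83, 5.83 and 5.93, with a single high tumor and no call. Against NTL the LT change of 0.79 ± 0.40 (SE; adjusted p = 0.173) was -0.09 (adjusted p = 0.926) without replicate 1 and 1.44 (adjusted p = 0.0121) without replicate 2. MYC tumors read 5.41, 4.91, 5.10, 5.40 and 4.89 and MYC NTL 5.47, 5.29 and 5.50, and the DEN and MYC tumor changes differed by 1.72 ± 0.53 (SE; adjusted p = 0.0257).

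Ccl20, the Ccr6 ligand, was higher in LT tumors by 0.60 ± 0.21 (SE; adjusted p = 0.0362), with values of 6.85, 5.08 and 5.40, and the change was 0.07 (adjusted p = 0.837) without replicate 1. Cxcl17 was higher in DEN tumors than in controls by 0.63 ± 0.24 (SE; adjusted p = 0.0431). Tumor replicate 4 read 7.85 and the other DEN tumors 5.66 to 5.78, and the change was 0.20 (adjusted p = 0.118) without it. Ccl25, a gut and thymus ligand of Ccr9, had means of 6.58 ± 0.96 (SD, n = 5) in DEN tumors and 7.91 ± 0.44 (SD, n = 5) in MYC tumors. Its changes against NTL were not called in either, while their difference was (-1.28 ± 0.45 (SE; adjusted p = 0.0492)). Ccl28 (3.91 to 4.40) and Xcl1, a T cell and NK cell product (4.51 to 5.72), were called in no comparison.

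Differences between the tumor changes of the models were tested in the same fit. Between DEN and LT, 6 ligands differed (17.6%, against 13.9% of all genes), all with the higher change in LT: Ccl5, Ccl6, Ccl7, Ccl8, Ccl17 and Ccl22. Between DEN and MYC there were 3 (8.82%, against 15.1%), Cxcl14 and Cxcl15 higher in DEN and Ccl25 higher in MYC. Between LT and MYC there was 1, Ccl7 (2.94%, against 12.4%). In the fit with the compared groups only, the count between DEN and LT was 3, where 9.29% of all genes were called. Without LT tumor replicate 1 it was 3 between DEN and LT and 0 between LT and MYC, where 12% and 8.34% of all genes were called.

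Genes for the receptors were counted from a list. In LT tumors against NTL, 10 of 17 measured chemokine receptor genes rose and none fell (median 0.60), where 10.7% of all genes rose. Without LT tumor replicate 1 the count was 4 (median 0.38), where 8.32% of all genes were called in either direction. Most of these receptors were dim. Of the 17, 11 had LT tumor means and 14 had LT NTL means under the line used to call ligands clearly above background. For such receptors a change tells a direction more than a size. In DEN tumors 5 receptors rose and 2 fell, where 15.6% of all genes rose and 16.7% fell. In MYC tumors 1 rose, Cx3cr1, where 11.5% of all genes rose. Cxcr4, the receptor of Cxcl12, read 7.25, 7.80, 8.43, 6.51 and 8.15 in DEN tumors and 5.85, 6.56, 6.07, 5.88 and 5.61 in DEN NTL, a change of 1.64 ± 0.32 (SE; adjusted p = 0.000185), opposite in sign to that of its ligand. LT tumors read 8.59, 7.23 and 6.17 and LT NTL 5.95, 5.45, 5.66, 5.83 and 5.67 for Cxcr4, a change of 1.62 ± 0.37 (SE; adjusted p = 0.00216). All LT tumors lay above all LT NTL samples, and without replicate 1 the change was 0.99 (adjusted p = 0.0849). MYC tumors read 6.51, 7.20, 6.25, 5.98 and 6.23 and MYC NTL 5.84, 5.75 and 5.77 for this receptor, with no call.

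Ccr2, the monocyte receptor of Ccl2, read 6.81, 6.61 and 5.95 in LT tumors and 5.29, 4.68, 5.02, 5.36 and 5.01 in LT NTL, a change of 1.39 ± 0.24 (SE; adjusted p = 0.000199), and rose in DEN tumors by 0.80 ± 0.21 (SE; adjusted p = 0.00378). Cx3cr1, the receptor of Cx3cl1 on monocytes and macrophages, read 8.22, 6.89 and 6.59 in LT tumors and 5.71, 5.68, 5.42, 5.87 and 5.67 in LT NTL, a change of 1.56 ± 0.27 (SE; adjusted p = 0.000169). It rose in DEN tumors by 0.81 ± 0.23 (SE; adjusted p = 0.00749) and in MYC tumors by 0.73 ± 0.27 (SE; adjusted p = 0.0491). Pf4, a platelet chemokine whose symbol lies outside the rule, read 8.20, 7.10 and 6.03 in LT tumors and 5.41, 5.46, 5.74, 5.58 and 5.35 in LT NTL, a change of 1.61 ± 0.26 (SE; adjusted p = 8.02e-05). In each of these genes LT tumor replicate 1 was the highest of its group, and without it the changes were 1.21 for Ccr2 (adjusted p = 0.00755), 1.07 for Cx3cr1 (adjusted p = 0.00873) and 1.06 for Pf4 (adjusted p = 0.00288). The list of 4 measured markers of platelets and megakaryocytes holds Pf4 and Ppbp themselves. Of these, Pf4 and Itga2b (0.41, adjusted p = 0.00501) rose in LT tumors, where 10.7% of all genes rose. The list means were 7.11, 6.82 and 6.32 on the tumor arrays and 5.87 to 6.21 on the NTL arrays. The part of these markers was not tested.

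Markers of other cells moved with these results. In LT tumors all 8 measured markers of monocyte-derived macrophages rose (median 1.48; list means of 8.94, 8.03 and 7.41 on the tumor arrays and 6.16 to 6.72 on the NTL arrays); this list includes Ccr2. In DEN tumors 3 of the 8 rose (7.10 to 7.50 against 6.37 to 7.02), and in MYC tumors 4 (6.53 to 7.36 against 5.92 to 5.99), with no overlap in any model. Neutrophil markers rose in 8 of 10 (5.75, 4.92 and 4.89 against 4.42 to 4.62), and those of stellate cells and fibroblasts, the liver's matrix-producing cells, in 5 of 9 (10.09, 8.39 and 8.28 against 7.76 to 8.14). The first value of each list is replicate 1, which was also the lowest LT tumor for hepatocyte markers (12.75, 13.04 and 13.30, against 13.20 to 13.32 in LT NTL). Without replicate 1 the LT counts were 7 of 8, 3 of 10 and 3 of 9. Their part in the rises of the ligands was not tested.

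Sinusoidal endothelial markers fell in 4 of 7 in LT tumors (8.97, 7.86 and 9.86 on the tumor arrays, 9.42 to 9.71 on the NTL arrays), and replicate 2, the lowest for them, was also the lowest LT tumor for Cxcl12 and Ccl19. Without replicate 1, 1 of 7 fell. In MYC tumors 3 of 7 sinusoidal markers fell (8.32 to 9.09 against 9.32 to 9.54) and 4 of 9 stellate cell and fibroblast markers fell (6.73 to 7.85 against 7.80 to 8.01). In DEN tumors the corresponding counts were 2 of 7 lower with 1 higher, and 2 of 9 lower with 2 higher. The mean of the stellate cell and fibroblast list was 7.96 to 8.69 on DEN tumor arrays and 7.9 to 8.13 on DEN NTL arrays. Of all genes, 16.7% fell and 15.6% rose in DEN tumors against NTL, 9.73% fell in LT and 10.3% fell in MYC tumors. The part of these cell markers in the falls of Cxcl12, Ccl19 and Cxcl13 was not tested.

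The position of the genes describes them further. On GRCm38.p6, 24 of the 34 ligands lie in 6 stretches in which neighbours are less than 200 kb apart, and 12 of the 34 are on chromosome 11 and 11 on chromosome 5. Neighbours did not always move together. In the 146.6 kb stretch of chromosome 5 that holds Cxcl5, Cxcl3, Cxcl15, Cxcl1 and Cxcl2, 3 of 5 rose in DEN tumors against NTL, where 15.6% of all genes rose. In the 144.2 kb stretch with Ccl2, Ccl7, Ccl11, Ccl12, Ccl8 and Ccl1, 3 of 6 rose in LT tumors, where 10.7% of all genes rose, and Ccl2 lost its call without LT tumor replicate 1. In the 42.0 kb stretch with Cxcl9, Cxcl10 and Cxcl11, 1 of 3 rose in DEN tumors. Genes of the NF-kB pathway were counted in tumors against NTL. Of 8 canonical members and inhibitors, 5 rose and 1 fell in DEN, 3 rose in LT, and 3 rose and 1 fell in MYC tumors. Of 7 non-canonical ones, 5 rose in DEN, 3 rose in LT, and 3 rose and 1 fell in MYC tumors. Of all genes, 15.6% rose and 16.7% fell in DEN tumors, and 10.7% rose and 9.73% fell in LT tumors. In MYC tumors 11.5% of all genes rose and 10.3% fell. The LT counts of the NF-kB pathway were not computed without LT tumor replicate 1.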

How the data were processed

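RNA from 35 liver samples was measured on 1 array each. Per the submitters' processing notes the authors used RMA, and the deposited values are log2 signals of 35556 probe sets on which no background step was repeated here; the version of RMA is not given in the sources used here. RMA's background and quantile steps make arrays comparable and compress differences of dim probe sets. Of the probe sets, 21218 carry 1 gene symbol in the platform annotation, 1881 several and 12457 none. The brightest single-symbol probe set per gene gave 18820 genes. No depth applies to arrays, whose number limits the precision.

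A mean per group was fitted with limma 3.58.1 (R 4.3.3) on all arrays, with empirical Bayes moderation and Benjamini-Hochberg adjustment over 18820 genes for each comparison, called at an adjusted p under 0.05. SE is the moderated standard error. The fit was tested on simulated data. Replicates carry no statement of separate litters. The p-values rest on 1 spread per gene shared by all 8 groups, not on the spread of the groups compared. For Ccl8 the SD was 1.63 in LT tumors and 0.13 in LT NTL. Its adjusted p in limma's fit was 0.000754 with all arrays and 0.126 with only those 2 groups. Ligands called with a change of at least 1 log2 unit in any of 9 comparisons are given on every array, the others by range and counts; receptors called at that size in tumors against NTL are named. The members and the gene lists were chosen with earlier results of these data known. Alternatives were scaling, a filter on dim genes, the choice of probe set, the groups in the fit, a replicate block, arrays of shared identifier stems averaged, Xist as a covariate and single arrays left out. Sequences are from RefSeq (GRCm38.p6).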

Additional observations from a re-analysis of the deposited data

Results flagged for a closer look

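On 3 of 84 group values tested over 14 ligands, 1 array lay far from the rest of its group, where chance gives about 1 in 20: Ccl24 in LT NTL replicate 3 (5.82), Cxcl10 in LT NTL replicate 4 (8.36) and Ccl8 in MYC tumor replicate 2 (4.61). LT tumors and MYC NTL, with 3 arrays each, were too small for this test and were left out of it. The result therefore says nothing about LT tumor replicate 1.

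The tumor changes against NTL differed between models in limma's fit for 10 pairs of model and gene. DEN minus LT was -1.19 for Ccl17, -0.81 for Ccl22, -1.95 for Ccl5, -1.78 for Ccl6, -0.89 for Ccl7 and -1.35 for Ccl8. DEN minus MYC was -1.28 for Ccl25, 1.72 for Cxcl14 and 0.38 for Cxcl15. LT minus MYC was 1.01 for Ccl7. Adjusted p-values of these differences are given with the genes above for Ccl5, Ccl6, Ccl7, Ccl17, Ccl25 and Cxcl14, and were 0.0149 for Ccl22, 0.0436 for Ccl8 and 0.0168 for Cxcl15. Without LT tumor replicate 1, Ccl22 differed by -0.50 (adjusted p = 0.103) and Ccl8 by -0.57 (adjusted p = 0.293).

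Probe sets with several symbols were outside the rule, and 9 of them name a chemokine. The 4 that name Ccl21a, Ccl21b and Ccl21c together with Gm1987, the Ccr7 ligands of lymphoid stroma, carried the same values. They were higher in MYC NTL than in LT/MYC controls by 1.21 ± 0.28 (SE; adjusted p = 0.0114). They were lower in DEN tumors than in DEN NTL by -1.33 ± 0.24 (SE; adjusted p = 5.41e-05) and in MYC tumors than in MYC NTL by -1.51 ± 0.27 (SE; adjusted p = 0.000168). Against controls the changes were -1.84 in DEN tumors (adjusted p = 3.68e-07) and -0.30 in MYC tumors (adjusted p = 0.443), the latter not called. The set that names Ccl27a with Gm3893, Gm21953 and 4933409K07Rik was higher than in LT/MYC controls by 1.75 in LT tumors and by 2.76 in LT NTL. It was lower in DEN tumors than in NTL by -1.76 (adjusted p = 0.000403) and than in controls by -1.83 (adjusted p = 0.000229), and in MYC tumors than in NTL by -1.72 (adjusted p = 0.00392). The other sets that name Ccl27a, with means of 9.00 to 9.10 over the arrays, were not called in the comparisons just given. They gave 0.13 to 0.16 in LT NTL and -0.36 to -0.34 in LT tumors against controls, and -0.22 to -0.125 in DEN tumors against NTL. These sets were called lower in LT tumors against NTL (-0.52 to -0.47) and in MYC tumors against controls (-0.66 to -0.64). In MYC tumors against controls the set with Gm3893 gave -0.34 (adjusted p = 0.598) and was not called. Which of the genes gave these signals cannot be told apart.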

How the results depend on the processing

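No called value of the 14 ligands given on every array changed sign under the alternatives run; values that were not called changed sign in 68 of the 2259 values computed, reaching at most 0.58 in size (Ccl19 in LT tumors against NTL without tumor replicate 2). Counts of called ligands moved by over 1.5 times in these cases. With only the compared groups in the fit there were 1 in LT tumors against NTL, 0 in LT tumors and 1 in LT NTL against controls, 6 in MYC tumors against NTL, 9 in MYC tumors and 6 in MYC NTL against controls, 3 for DEN minus LT and 2 for LT minus MYC. With arrays of shared identifier stems averaged there were 3 in LT tumors, 6 in MYC tumors and 3 in MYC NTL against controls, and 3 for LT minus MYC. That averaging also took the calls of Ccl5, Ccl6 and Ccl26 in LT tumors against NTL, and of Cxcl10 and Cxcl15 in DEN tumors against NTL. Against controls it took those of Ccl7 and Cxcl16 in LT tumors and of Ccl1 in DEN tumors, and in DEN minus LT those of Ccl7 and Ccl8. With Xist as a covariate there were 1 in LT tumors and 0 in MYC NTL against controls, and with the filter on dim genes 2 for LT minus MYC. The cause was not tested.

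Leaving out 1 array at a time gave 9 to 12 called ligands in DEN tumors against NTL, 5 to 10 against controls, and 1 to 1 in DEN NTL against controls. It gave 3 to 13 in LT tumors against NTL, 2 to 10 against controls, and 0 to 0 in LT NTL. In MYC it gave 2 to 2 in tumors against NTL, 3 to 4 against controls and 0 to 1 in NTL. The lowest LT counts were without tumor replicate 1 and the highest without replicate 3. Single arrays were left out for the 9 comparisons of groups; for receptors, marker lists and the differences between models only LT tumor replicate 1 was, an alternative chosen after seeing the data.

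Over 35 pairs of same-numbered arrays the correlations of deviations ran from -0.379 to 0.291, 10 of them over 0.1. In LT tumors against LT/MYC controls all 3 were over 0.1 (0.137 at least), and the replicate block took the call of Cx3cl1 there. In the other 8 comparisons at least 1 pair was not, and the numbers were not taken to pair the samples. With the replicate block the counts were 11 (DEN tumors against NTL), 6 (against controls), 10 (LT tumors against NTL), 4 (against controls), 2 and 3 (MYC tumors). Of 168 values of the 14 ligands given on every array, 167 kept their side of the threshold with the replicate block, and Ccl8 in DEN minus LT did not. Median centring changed none of the 168.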
